A study of Mus musculus with 18 samples.

Results

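The 33 genes described here run glycolysis and the hypoxia response. They comprise 17 glycolytic enzymes, 3 transporters of glucose and lactate, 3 regulators of glycolytic flux, the 2 alpha subunits of the hypoxia-inducible factor (HIF), 2 HIF prolyl hydroxylases and 6 further HIF target genes. They were taken by gene name from a count matrix of 57180 genes, of which 15832 had enough reads to be tested, and all 33 were among the genes tested. Aortic smooth muscle cells from C57BL/6 mice (thoracic aorta) were transfected with an siRNA against Itgav, the gene of the integrin αV subunit, or with a scramble siRNA, then stimulated and harvested for bulk RNA sequencing. The 6 groups of 3 libraries were Itgav siRNA with TGF-β, scramble siRNA with TGF-β, Itgav siRNA with PDGF-BB, scramble siRNA with PDGF-BB, Itgav siRNA without stimulus and scramble siRNA without stimulus. All cells thus shared the strain, growth in culture and a transfection. The labels give no dose, time, passage or oxygen level. They do not say whether the 3 libraries of a group came from separate cultures or animals, so p-values measure only the spread between these libraries. Since an Itgav siRNA was set against a scramble siRNA, loss of Itgav and other effects of that siRNA cannot be told apart.

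Glycolysis splits glucose to pyruvate in the cytosol, and lactate dehydrogenase then turns pyruvate into lactate, which leaves the cell through monocarboxylate transporters. Under low oxygen the HIF alpha subunits escape the prolyl hydroxylases that mark them for degradation, pair with HIF-1β and raise transcription of many of these genes. In smooth muscle, growth factors such as PDGF-BB are also known to raise glycolysis, and TGF-β drives the contractile, matrix-producing state. HIF alpha is controlled mainly at the protein level, which these RNA data do not measure.

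The libraries held 17705072 to 21592916 counts. Levels are CPM, counts scaled by library size after trimmed-mean normalisation. Itgav had 26.1, 29.7 and 25.3 CPM in Itgav siRNA cells with TGF-β against 548, 553 and 472 CPM in scramble cells with TGF-β. With PDGF-BB it had 19.1, 23.9 and 25.5 CPM in Itgav siRNA cells against 307, 336 and 319 CPM in scramble cells. In the absence of a stimulus it had 14.8, 14.1 and 16.4 CPM in Itgav siRNA cells against 300.2, 326 and 323 CPM in scramble cells, so the labels of all 18 libraries matched the targeted gene. The 8 smooth muscle markers were all tested and summed to between 1310 and 11475 CPM over the libraries. Of the markers of other cells, erythroid and lymphocyte markers were near 0. The 8 macrophage markers summed to at most 20.8 CPM, with Adgre1, C1qa and C1qb at or near 0. Among them Cd68 had 8.69, 9.73 and 9.80 CPM in scramble cells with PDGF-BB against 2.29, 1.98 and 1.99 CPM without stimulus. For Lyz2 these levels were 5.71, 5.56 and 6.38 CPM against 9.07, 8.68 and 11.4 CPM. The 8 endothelial markers were all tested and summed to between 64.4 and 109.9 CPM over the libraries. Cdh5, one of them, had 29.5, 27.5 and 25.1 CPM in scramble cells without stimulus. The 6 mesothelial and 8 adventitial fibroblast markers reached sums of 219 and 156 CPM in the library where each was highest. In bulk RNA, fewer cells of a type and less RNA per cell cannot be told apart.

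A gene was called higher or lower at an adjusted p below 0.05 in edgeR's quasi-likelihood test, with Benjamini-Hochberg adjustment over all 15832 genes. Every adjusted p here is from that test, and in alternative fits it was adjusted over the genes each fit tested. SE is an approximate standard error, the absolute log2 fold change divided by the square root of the F statistic. With PDGF-BB against no stimulus, 27 of the 33 genes were called in Itgav siRNA cells, 22 higher and 5 lower, where 36.4% of all genes tested were called, 17.2% higher and 19.2% lower. In scramble cells PDGF-BB gave 23 calls, 17 higher and 6 lower, beside 36.1% of all genes, 16.9% higher and 19.2% lower. TGF-β gave 27 calls in Itgav siRNA cells, 18 higher and 9 lower, beside 57.5%, 27.9% higher and 29.6% lower. It gave 20 calls in scramble cells, 9 higher and 11 lower, beside 48.3% of all genes, 23.4% higher and 24.8% lower. Itgav siRNA against scramble gave 27 calls with TGF-β, 16 higher and 11 lower, beside 48.4% of all genes, 24.1% higher and 24.3% lower. With PDGF-BB it gave 27 calls, 13 higher and 14 lower, beside 59.3%, 29.4% higher and 29.9% lower. Without stimulus it gave 21 calls, 10 higher and 11 lower, beside 53.4%, 25.9% higher and 27.5% lower. Each of these shares of the 33 genes lay above its background, by the least for the siRNA in unstimulated cells (63.6%) and for TGF-β in scramble cells (60.6%). The background covers all genes tested and was not matched to the 33 genes for level. Scaling by library totals turned the PDGF-BB split in scramble cells into 22 higher and 6 lower, with 57.4% of all called genes then higher against 46.8% under trimmed-mean scaling. The 2 stimuli were each set against the same unstimulated libraries, so their values below share controls.

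**Figure D1:**
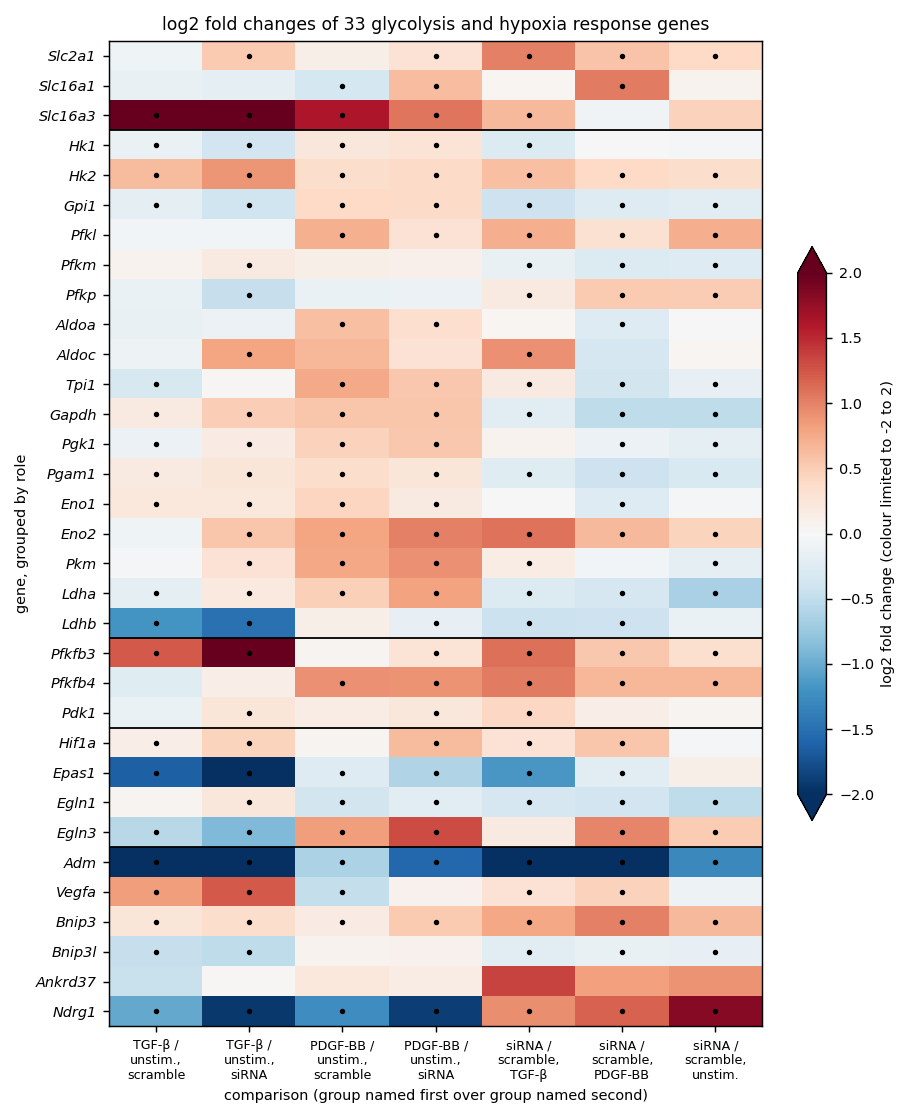
Log2 fold change of each of the 33 genes (vertical axis, grouped by role) in the 7 comparisons (horizontal axis), with red for higher and blue for lower in the group named first and colours limited to -2 to 2. A dot marks an adjusted p below 0.05 in edgeR. PDGF-BB in scramble cells has 13 enzymes in red with a dot and none in blue with a dot, whereas the Itgav siRNA columns mix both colours among the enzymes.

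Slc2a1 encodes GLUT1, the main basal glucose transporter of many cells, and it was higher after Itgav siRNA in every medium. It had 93.8, 84.1 and 95.7 CPM in Itgav siRNA cells with TGF-β against 43.5, 43.2 and 49.4 CPM in scramble cells with TGF-β. With PDGF-BB it had 84.9, 74.3 and 74.6 CPM in Itgav siRNA cells against 54.3, 50.0 and 53.2 CPM in scramble cells, and without stimulus 62.5, 63.0 and 65.9 CPM in Itgav siRNA cells against 48.8, 49.3 and 46.8 CPM in scramble cells. The siRNA libraries lay above the scramble libraries with no overlap in all 3 media. The difference was 2.01-fold with TGF-β (log2 fold change 1.01, SE 0.065, edgeR adjusted p = 1.9e-11), 1.48-fold with PDGF-BB (log2 fold change 0.57, SE 0.064, edgeR adjusted p = 9.4e-08) and 1.32-fold without stimulus (log2 fold change 0.40, SE 0.065, edgeR adjusted p = 1.8e-05). The siRNA effect was larger with TGF-β than without stimulus by 0.61 on the log2 scale (SE 0.091, edgeR adjusted p = 3.4e-05). In Itgav siRNA cells both stimuli raised Slc2a1, by 0.52 for TGF-β (edgeR adjusted p = 2.9e-07) and 0.29 for PDGF-BB (edgeR adjusted p = 8.9e-04). In scramble cells neither passed the test, with log2 fold changes of -0.09 for TGF-β and 0.12 for PDGF-BB; under library totals that for TGF-β was called, at -0.20 (edgeR adjusted p = 0.021).

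The 2 lactate transporters differed from each other in what they responded to. Slc16a3 encodes MCT4, which exports lactate from glycolytic cells and is a known HIF target. It had 14.2, 15.1 and 14.4 CPM in Itgav siRNA cells with TGF-β, 7.72, 5.84 and 4.90 CPM in Itgav siRNA cells with PDGF-BB and 2.95, 2.66 and 3.16 CPM in Itgav siRNA cells without stimulus. Scramble cells had 8.24, 9.62 and 9.95 CPM of it with TGF-β, 8.64, 4.94 and 5.92 CPM with PDGF-BB and 2.47, 2.28 and 1.60 CPM without stimulus. Both stimuli raised it with no overlap between groups: TGF-β raised it 4.98-fold in Itgav siRNA cells (log2 fold change 2.32, SE 0.19, edgeR adjusted p = 4.4e-10) and 4.36-fold in scramble cells (log2 fold change 2.13, SE 0.20, edgeR adjusted p = 1.0e-08). PDGF-BB raised it 2.11-fold in Itgav siRNA cells (edgeR adjusted p = 1.9e-04) and 3.06-fold in scramble cells (edgeR adjusted p = 2.1e-06). Itgav siRNA raised Slc16a3 with TGF-β only among the 3 media (log2 fold change 0.65, SE 0.16, edgeR adjusted p = 0.0022), but the siRNA effect with TGF-β was not shown to differ from that without stimulus (0.19, SE 0.29, edgeR adjusted p = 0.70).

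Slc16a1 encodes MCT1, a transporter that carries lactate in either direction. It had 29.0, 31.6 and 29.4 CPM in Itgav siRNA cells with PDGF-BB against 13.9, 16.0 and 13.8 CPM in scramble cells with PDGF-BB, and 20.2, 20.4 and 17.9 CPM in Itgav siRNA cells without stimulus against 19.6, 19.4 and 16.9 CPM in scramble cells without stimulus. The siRNA libraries stood apart with PDGF-BB and overlapped the scramble libraries without stimulus. PDGF-BB raised Slc16a1 in Itgav siRNA cells (log2 fold change 0.62, SE 0.081, edgeR adjusted p = 2.0e-06) and lowered it in scramble cells (log2 fold change -0.36, SE 0.086, edgeR adjusted p = 0.0023). The difference between these responses was itself called (0.98 on the log2 scale, SE 0.12, edgeR adjusted p = 5.1e-06). Among the 22 genes called for PDGF-BB in both kinds of cell, Slc16a1 was the only one to move in opposite directions. The same count over all genes tested was not made. TGF-β did not move Slc16a1 past the threshold in either kind of cell (log2 fold change -0.18 in Itgav siRNA cells and -0.15 in scramble cells).

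PDGF-BB raised most of the glycolytic enzymes together. In Itgav siRNA cells 13 of the 17 were higher and 1, Ldhb, lower, with a median log2 fold change of 0.34 over the 17 where the median over all genes tested was -0.01. In scramble cells the same 13 were higher and none lower, with a median of 0.46 where that of all genes was 0.01. In Itgav siRNA cells Eno1 and Ldhb did not hold when single libraries were left out: the adjusted p of Eno1 in edgeR was 0.057 to 0.13 without Itgav siRNA unstimulated replicate 2 or 3 or Itgav siRNA PDGF-BB replicate 1, and that of Ldhb 0.055 to 0.15 without Itgav siRNA unstimulated replicate 2 or 3 or Itgav siRNA PDGF-BB replicate 1 or 3. Scaling by library totals left 14 enzymes higher and none lower in Itgav siRNA cells and 16 higher and none lower in scramble cells. The summed level of the 17 enzymes was 7254 ± 391 CPM in Itgav siRNA cells with PDGF-BB against 5123 ± 104 CPM in Itgav siRNA cells without stimulus (SD, n = 3 each). In scramble cells it was 8598 ± 477 CPM with PDGF-BB against 5925 ± 224 CPM without stimulus (SD, n = 3 each). In both kinds of cell the PDGF-BB libraries lay above all unstimulated libraries.

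**Figure D2:**
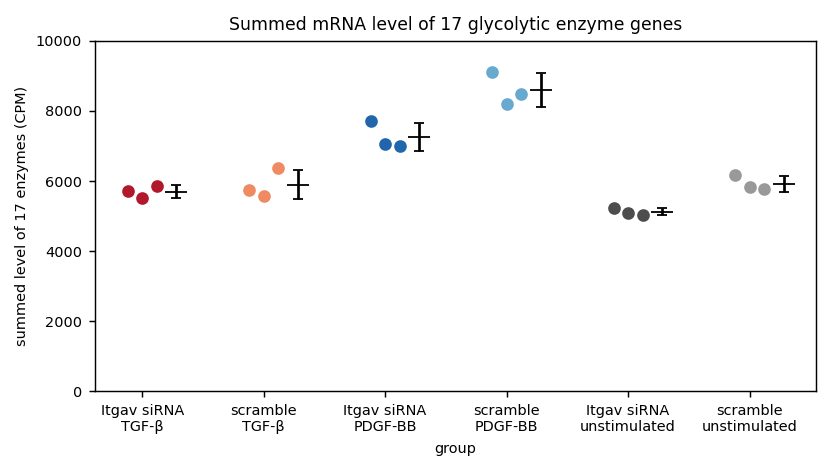
Summed level (CPM, vertical axis) of the 17 glycolytic enzyme genes in each library, by group (horizontal axis); points are libraries, bars the mean and SD of 3. The PDGF-BB libraries lie above the others, with Itgav siRNA cells (mean 7254 CPM) below scramble cells (mean 8598 CPM).

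Pkm, the pyruvate kinase of the last energy-yielding step, was the most abundant enzyme transcript with PDGF-BB on the CPM scale, which does not correct for length. It had 1826, 1676 and 1669 CPM in Itgav siRNA cells with PDGF-BB against 952, 905 and 896 CPM in Itgav siRNA cells without stimulus (1.88-fold, log2 fold change 0.91, SE 0.058, edgeR adjusted p = 2.3e-11). In scramble cells it had 1916, 1664 and 1762 CPM with PDGF-BB against 1104, 1019.9 and 995 CPM without stimulus (1.71-fold, log2 fold change 0.78, SE 0.058, edgeR adjusted p = 4.4e-10). The groups did not overlap in either kind of cell. In scramble cells the other rises ran from Hk1, hexokinase 1 (log2 fold change 0.23, SE 0.045, edgeR adjusted p = 3.0e-04), to Eno2, the gamma enolase best known from neurons (log2 fold change 0.79, SE 0.13, edgeR adjusted p = 3.2e-05). Between them lay Tpi1, triose phosphate isomerase (0.76), Pfkl, the liver-type phosphofructokinase (0.71), Aldoa, aldolase A (0.60), Gapdh, glyceraldehyde-3-phosphate dehydrogenase (0.55), and Ldha, lactate dehydrogenase A (0.48). Pgk1, phosphoglycerate kinase (0.46), Eno1, alpha enolase (0.43), Gpi1, glucose-6-phosphate isomerase (0.41), Pgam1, phosphoglycerate mutase (0.34), and Hk2, hexokinase 2 (0.34), also rose, these figures being log2 fold changes. Every one of these 13 calls in scramble cells also passed in each alternative fit, and none of their groups overlapped. The 4 enzymes that did not pass there were Pfkm (0.12), Pfkp (-0.13), Aldoc (0.66) and Ldhb (0.12). In Itgav siRNA cells the summed level of the 6 mesothelial markers was 81.5 to 90.0 CPM with PDGF-BB against 90.5 to 93.2 CPM without stimulus, that of the 8 fibroblast markers 121 to 129 CPM against 89.7 to 91.0 CPM, and that of the 8 smooth muscle markers 1310.5 to 1424 CPM against 2617 to 2755 CPM. In scramble cells the mesothelial sum was 194 to 219 CPM with PDGF-BB against 155 to 166 CPM without stimulus, the fibroblast sum 149 to 156 CPM against 96.1 to 98.9 CPM, and the smooth muscle sum 2071 to 2261 CPM against 4151 to 4407 CPM. The fibroblast sum was thus higher and the smooth muscle sum lower with PDGF-BB in both kinds of cell. The mesothelial sum was higher in scramble cells, but Upk3b and Krt19, both mesothelial markers, moved in opposite directions in both kinds of cell. Upk3b had 7.68, 7.36 and 6.39 CPM with PDGF-BB against 37.6, 40.3 and 42.1 CPM without stimulus in Itgav siRNA cells. In scramble cells it had 11.8, 11.2 and 12.1 CPM against 44.1, 42.5 and 45.1 CPM. Krt19 had 54.2, 48.4 and 50.4 CPM against 16.4, 15.1 and 15.1 CPM in Itgav siRNA cells. In scramble cells it had 107.5, 82.2 and 87.7 CPM against 34.4, 33.9 and 29.2 CPM. In Itgav siRNA cells the levels of Mylk and Smtn, both smooth muscle markers, overlapped between PDGF-BB and no stimulus. Mylk did not follow its sum in scramble cells either. It had 38.3, 42.8 and 37.8 CPM there with PDGF-BB against 32.8, 34.2 and 35.4 CPM without stimulus. The part of these markers in the rise of the enzymes was not tested.

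TGF-β did not move the enzymes as a block, and its effect on them depended on the scaling. In Itgav siRNA cells 10 were called higher and 4 lower, and in scramble cells 4 higher and 6 lower. Scaling by library totals put the median of all genes at -0.17 in Itgav siRNA cells and -0.12 in scramble cells, where it was -0.02 and -0.01 under trimmed-mean scaling. The enzyme splits then became 4 higher and 6 lower in Itgav siRNA cells and 1 higher and 9 lower in scramble cells, while 33.2% and 33.3% of all called genes were higher, against 48.6% in each under trimmed-mean scaling. Over the 33 genes the splits became 10 higher and 12 lower in Itgav siRNA cells and 4 higher and 18 lower in scramble cells. Ldhb, which encodes the lactate dehydrogenase subunit found in oxidative tissues such as heart, fell under either scaling. It had 50.0, 46.6 and 48.0 CPM in Itgav siRNA cells with TGF-β against 132, 134 and 140.4 CPM in Itgav siRNA cells without stimulus (2.81-fold lower, log2 fold change -1.49, SE 0.064, edgeR adjusted p = 6.7e-15). In scramble cells it had 65.9, 61.2 and 67.6 CPM with TGF-β against 159, 141 and 146 CPM without stimulus (2.29-fold lower, log2 fold change -1.20, SE 0.062, edgeR adjusted p = 4.1e-13). None of these groups overlapped. Hk2, the inducible hexokinase, rose under either scaling, with 52.4, 57.9 and 51.3 CPM in Itgav siRNA cells with TGF-β against 28.7, 31.6 and 27.3 CPM in Itgav siRNA cells without stimulus, and 36.6, 37.6 and 32.2 CPM in scramble cells with TGF-β against 20.5, 25.1 and 23.1 CPM in scramble cells without stimulus. Its log2 fold changes were 0.88 in Itgav siRNA cells (SE 0.089, edgeR adjusted p = 1.5e-08) and 0.63 in scramble cells (SE 0.093, edgeR adjusted p = 6.6e-06). Of the cell type markers, the mesothelial sum in Itgav siRNA cells was 25.3 to 31.1 CPM with TGF-β against 90.5 to 93.2 CPM without stimulus, the fibroblast sum 33.3 to 37.3 CPM against 89.7 to 91.0 CPM, and the smooth muscle sum 6166 to 6260.4 CPM against 2617 to 2755 CPM. In scramble cells the mesothelial sum was 62.1 to 64.6 CPM with TGF-β against 155 to 166 CPM without stimulus, the fibroblast sum 38.2 to 39.9 CPM against 96.1 to 98.9 CPM, and the smooth muscle sum 11215 to 11475 CPM against 4151 to 4407 CPM. With TGF-β the mesothelial and fibroblast sums were thus lower and the smooth muscle sum higher in both kinds of cell. Single markers did not all follow their sums. Mylk fell with TGF-β, to 17.2, 14.6 and 15.5 CPM from 43.7, 44.3 and 47.5 CPM in Itgav siRNA cells. In scramble cells it fell to 20.2, 20.9 and 19.7 CPM from 32.8, 34.2 and 35.4 CPM. Myh11 and Lmod1, also smooth muscle markers, were lower with TGF-β in Itgav siRNA cells and higher in scramble cells. Dpt, a fibroblast marker, was higher with TGF-β in both kinds of cell. The part of these markers in the TGF-β results for the 33 genes was not tested.

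Ldha, the lactate dehydrogenase subunit of glycolytic tissues, was called in opposite directions with TGF-β in the 2 kinds of cell under trimmed-mean scaling. Its level was 307, 298 and 314 CPM in Itgav siRNA cells with TGF-β against 269, 268 and 264 CPM in Itgav siRNA cells without stimulus (log2 fold change 0.20, SE 0.049, edgeR adjusted p = 0.0014). In scramble cells it was 361, 356 and 399 CPM with TGF-β against 425, 415 and 423 CPM without stimulus (log2 fold change -0.18, SE 0.048, edgeR adjusted p = 0.0040). The rise in Itgav siRNA cells was no longer called under library totals (log2 fold change 0.05, edgeR adjusted p = 0.41), where the fall in scramble cells was -0.29. The difference between the 2 responses, which library totals left called at 0.34, was 0.38 (SE 0.068, edgeR adjusted p = 2.9e-04). Pgk1 was likewise called in opposite directions, at 0.16 in Itgav siRNA cells and -0.11 in scramble cells. The rise was not called under library totals (0.01), and the fall had an adjusted p in edgeR of 0.053 to 0.19 without scramble unstimulated replicate 1, 2 or 3 or scramble TGF-β replicate 1 or 2, and was also not called with DESeq2 size factors or with only the groups compared. The ratio of Hk1 to Hk2, taken as CPM per kilobase of transcript, was 3.01 ± 0.279 in Itgav siRNA cells with TGF-β and 5.25 ± 0.242 in scramble cells with TGF-β (SD, n = 3 each). Without stimulus it was 6.72 ± 0.426 in Itgav siRNA cells and 9.19 ± 0.823 in scramble cells (SD, n = 3 each).

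Itgav siRNA raised some of the enzymes and lowered others. With TGF-β 7 were higher and 7 lower, with PDGF-BB 4 higher and 10 lower, and without stimulus 4 higher and 8 lower. Of the 10 enzymes called in all 3 media, Hk2, Pfkl, Pfkp and Eno2 were higher and Gpi1, Pfkm, Gapdh, Pgam1 and Ldha lower in each, while Tpi1 was higher with TGF-β and lower elsewhere. The same count over all genes tested was not made. The calls of Pfkm, Pfkp and Tpi1 with TGF-β did not hold when single libraries were left out, with adjusted p in edgeR of up to 0.11, 0.18 and 0.17. The summed enzyme level was 5697 ± 176 CPM in Itgav siRNA cells with TGF-β against 5899 ± 419 CPM in scramble cells with TGF-β, and the libraries overlapped. It was 7254 ± 391 CPM in Itgav siRNA cells with PDGF-BB against 8598 ± 477 CPM in scramble cells with PDGF-BB, and 5123 ± 104 CPM in Itgav siRNA cells without stimulus against 5925 ± 224 CPM in scramble cells without stimulus, with no overlap in either case (SD, n = 3 each).

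**Figure D3:**
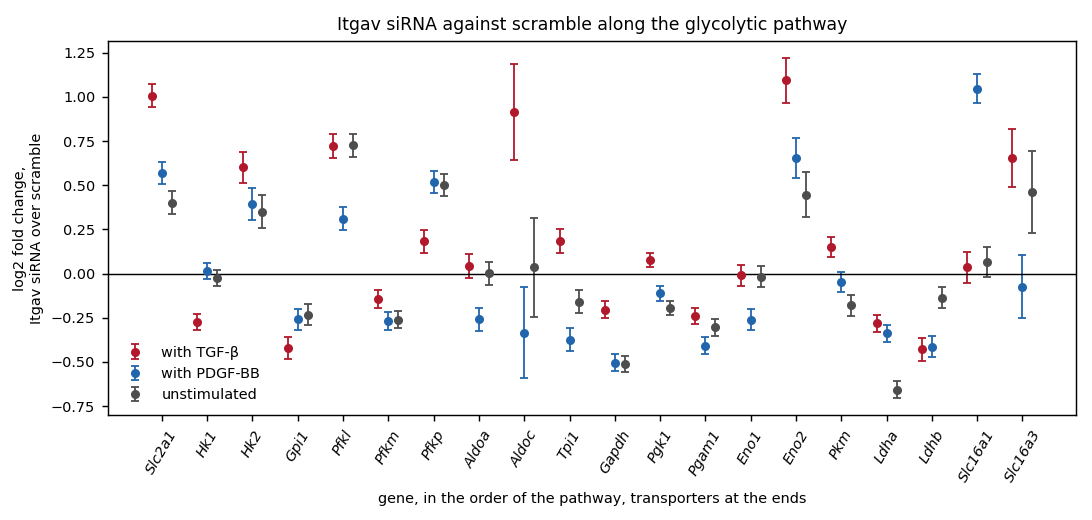
Log2 fold change of Itgav siRNA over scramble (vertical axis) with TGF-β, with PDGF-BB and without stimulus, for 20 genes in pathway order (horizontal axis) with Slc2a1 at the left and the lactate transporters at the right; bars are SE. Slc2a1, Hk2, Pfkl, Pfkp and Eno2 lie above 0 in all 3 media, and Gpi1, Pfkm, Gapdh, Pgam1 and Ldha below 0.

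Without stimulus, Gapdh and Ldha had the most negative siRNA effects among the enzymes. Gapdh, often used as a reference transcript in qPCR, had 1128, 1081 and 1132 CPM in Itgav siRNA cells with TGF-β against 1236, 1234 and 1378 CPM in scramble cells with TGF-β (log2 fold change -0.20, SE 0.047, edgeR adjusted p = 0.0011). With PDGF-BB it had 1254, 1130.2 and 1118 CPM in Itgav siRNA cells against 1704, 1611 and 1648 CPM in scramble cells (-0.50 on the log2 scale, edgeR adjusted p = 6.6e-09), and without stimulus 815, 775 and 786 CPM in Itgav siRNA cells against 1174, 1110.3 and 1103 CPM in scramble cells (1.43-fold lower, log2 fold change -0.51, SE 0.047, edgeR adjusted p = 6.4e-09). No pair of groups overlapped. Ldha fell by 0.28 on the log2 scale with TGF-β (edgeR adjusted p = 4.7e-05), by 0.34 with PDGF-BB (edgeR adjusted p = 2.6e-06) and by 0.66 without stimulus (edgeR adjusted p = 1.6e-10). For both genes the siRNA effect with TGF-β was less negative than without stimulus, by 0.31 for Gapdh (edgeR adjusted p = 0.0016) and 0.38 for Ldha (edgeR adjusted p = 2.9e-04). Gpi1 (-0.42 with TGF-β, -0.26 with PDGF-BB, -0.23 without stimulus) and Pgam1 (-0.24, -0.41 and -0.30 in the same order of media) also fell in each medium. A Gapdh-like gene, Gapdhrt, held 0.210% as many counts as Gapdh, and Eno1b 0.0490% as many as Eno1, so few counts were assigned to these copies.

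Pfkl, one of 3 isoforms of the phosphofructokinase that commits glucose to glycolysis, was the enzyme with the highest siRNA effect without stimulus. It had 74.0, 71.0 and 75.6 CPM in Itgav siRNA cells with TGF-β against 42.8, 43.5 and 47.4 CPM in scramble cells with TGF-β (1.65-fold, log2 fold change 0.72, SE 0.069, edgeR adjusted p = 1.1e-08). With PDGF-BB, which itself raised Pfkl, it had 97.7, 92.8 and 90.0 CPM in Itgav siRNA cells against 83.1, 67.3 and 75.7 CPM in scramble cells (1.24-fold, edgeR adjusted p = 2.7e-04). Without stimulus it had 80.7, 77.7 and 70.9 CPM in Itgav siRNA cells against 48.1, 45.3 and 45.2 CPM in scramble cells (1.65-fold, log2 fold change 0.73, SE 0.067, edgeR adjusted p = 6.6e-09). The groups were apart in every medium. The siRNA effect with PDGF-BB was smaller than without stimulus (-0.41 on the log2 scale, SE 0.093, edgeR adjusted p = 0.0035). Eno2 had the highest siRNA effect among the enzymes with TGF-β, with 19.0, 20.8 and 20.7 CPM in Itgav siRNA cells against 8.59, 9.52 and 10.2 CPM in scramble cells (2.13-fold, log2 fold change 1.09, SE 0.13, edgeR adjusted p = 2.8e-07). Hk2 rose by 0.60 on the log2 scale with TGF-β, 0.39 with PDGF-BB and 0.35 without stimulus (edgeR adjusted p = 5.8e-06, 7.3e-04 and 0.0033).

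The other phosphofructokinase isoforms moved against each other. The platelet-type Pfkp rose with the siRNA by 0.52 with PDGF-BB (edgeR adjusted p = 3.1e-07) and 0.50 without stimulus (edgeR adjusted p = 5.1e-07). The muscle-type Pfkm fell by 0.27 with PDGF-BB (edgeR adjusted p = 7.4e-05) and 0.26 without stimulus (edgeR adjusted p = 1.4e-04), all on the log2 scale. With TGF-β both calls were marginal. That of Pfkp (0.18, edgeR adjusted p = 0.023) had an adjusted p of 0.066 or 0.18 without scramble TGF-β replicate 1 or 2 and 0.12 or 0.066 without Itgav siRNA TGF-β replicate 2 or 3 in edgeR. That of Pfkm (-0.14, edgeR adjusted p = 0.022) had an adjusted p of 0.065 without scramble TGF-β replicate 3 and 0.11 or 0.079 without Itgav siRNA TGF-β replicate 1 or 2 in edgeR. Both genes overlap another gene on the opposite strand, Pfkp with Pitrm1, which had 262% as many counts, and Pfkm with Senp1, which had 47.4% as many. The labels do not state whether counting used strand, and reads of these neighbours cannot be told apart from those of the 2 genes.

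The remaining enzymes gave mixed or small siRNA effects. Tpi1 fell by 0.37 with PDGF-BB (edgeR adjusted p = 4.1e-05), with 379.6, 348 and 345 CPM in Itgav siRNA cells against 509, 431 and 452 CPM in scramble cells; its calls in the other media (0.19 with TGF-β, -0.16 without stimulus) did not hold when single libraries were left out. With TGF-β its adjusted p in edgeR was 0.079, 0.16 and 0.17 without scramble TGF-β replicate 1, scramble TGF-β replicate 2 and Itgav siRNA TGF-β replicate 3, and without stimulus it was 0.050 to 0.20 whichever of the 6 libraries was left out. Aldoa (-0.26, edgeR adjusted p = 0.0019) and Eno1 (-0.26, edgeR adjusted p = 6.5e-04) were lower with PDGF-BB and were not called in the other media. Ldhb was lower with TGF-β (-0.43, edgeR adjusted p = 1.2e-05) and with PDGF-BB (-0.41, edgeR adjusted p = 3.7e-06). Hk1 was lower with TGF-β (-0.27, edgeR adjusted p = 3.5e-05) and Pgk1 without stimulus (-0.19, edgeR adjusted p = 4.9e-04). Pgk1 with PDGF-BB (-0.11), Pkm with TGF-β (0.15) and Pkm without stimulus (-0.18) were called but did not hold without 1 library. The adjusted p of Pgk1 in edgeR was 0.082 to 0.10 without scramble PDGF-BB replicate 1 or 3 or Itgav siRNA PDGF-BB replicate 2 or 3. That of Pkm was 0.087 to 0.20 with TGF-β without scramble TGF-β replicate 1 or 2 or Itgav siRNA TGF-β replicate 1 or 3, and 0.054 or 0.073 without stimulus without Itgav siRNA unstimulated replicate 3 or scramble unstimulated replicate 1. Aldoc, the brain-type aldolase, never exceeded 3.48 CPM; its siRNA effect with TGF-β (0.92, edgeR adjusted p = 0.0079) had an adjusted p of 0.056 without Itgav siRNA TGF-β replicate 3.

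The regulators of flux rose with Itgav siRNA wherever they passed the test. Pfkfb3 encodes the bifunctional enzyme that makes fructose 2,6-bisphosphate, the strongest activator of phosphofructokinase. It had 147, 155 and 143 CPM in Itgav siRNA cells with TGF-β against 73.2, 68.1 and 64.8 CPM in scramble cells with TGF-β (2.16-fold, log2 fold change 1.11, SE 0.052, edgeR adjusted p = 1.1e-13). With PDGF-BB it had 44.5, 44.8 and 44.3 CPM in Itgav siRNA cells against 31.1, 30.1 and 30.5 CPM in scramble cells (1.46-fold, log2 fold change 0.54, SE 0.058, edgeR adjusted p = 4.3e-08), and without stimulus 39.4, 36.2 and 34.7 CPM in Itgav siRNA cells against 28.4, 29.2 and 30.4 CPM in scramble cells (1.25-fold, log2 fold change 0.33, SE 0.059, edgeR adjusted p = 7.3e-05). All 3 pairs of groups were apart, and the libraries with both the siRNA and TGF-β were the highest of the 18. TGF-β raised Pfkfb3 4.03-fold in Itgav siRNA cells (edgeR adjusted p = 2.2e-18) and 2.34-fold in scramble cells (edgeR adjusted p = 5.0e-14). The siRNA effect with TGF-β exceeded that without stimulus by 0.78 on the log2 scale (SE 0.079, edgeR adjusted p = 1.6e-07), a difference that did not pass with PDGF-BB (0.22, edgeR adjusted p = 0.069) except without Itgav siRNA unstimulated replicate 1, where it was 0.27 (edgeR adjusted p = 0.034).

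Pfkfb4, a second isoform of that enzyme, rose with PDGF-BB. It had 19.2, 19.8 and 18.6 CPM in Itgav siRNA cells with PDGF-BB, 12.9, 11.8 and 11.7 CPM in scramble cells with PDGF-BB, 10.4, 10.5 and 9.85 CPM in Itgav siRNA cells without stimulus and 5.41, 6.44 and 7.60 CPM in scramble cells without stimulus. PDGF-BB raised it 1.87-fold in Itgav siRNA cells (edgeR adjusted p = 1.6e-07) and 1.88-fold in scramble cells (edgeR adjusted p = 6.2e-07), with no overlap in either. TGF-β did not pass the test on it in either kind of cell (0.13 in Itgav siRNA cells, -0.24 in scramble cells). Itgav siRNA raised it 2.06-fold with TGF-β (edgeR adjusted p = 1.0e-07), 1.58-fold with PDGF-BB (edgeR adjusted p = 4.2e-06) and 1.59-fold without stimulus (edgeR adjusted p = 2.5e-05). Per kilobase of transcript, Pfkfb3 was 9.31 ± 0.262 times the level of Pfkfb4 in Itgav siRNA cells with TGF-β and 9.51 ± 0.845 times in scramble cells with TGF-β, and 2.57 ± 0.106 times in Itgav siRNA cells without stimulus and 3.20 ± 0.356 times in scramble cells without stimulus (SD, n = 3 each). Pdk1, the pyruvate dehydrogenase kinase that holds pyruvate back from mitochondria, was higher with Itgav siRNA with TGF-β, at 21.7, 22.7 and 20.6 CPM in Itgav siRNA cells against 15.7, 16.7 and 16.5 CPM in scramble cells (log2 fold change 0.41, SE 0.068, edgeR adjusted p = 2.6e-05), and was not called in the other media (0.13 with PDGF-BB, 0.05 without stimulus).

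**Figure D4:**
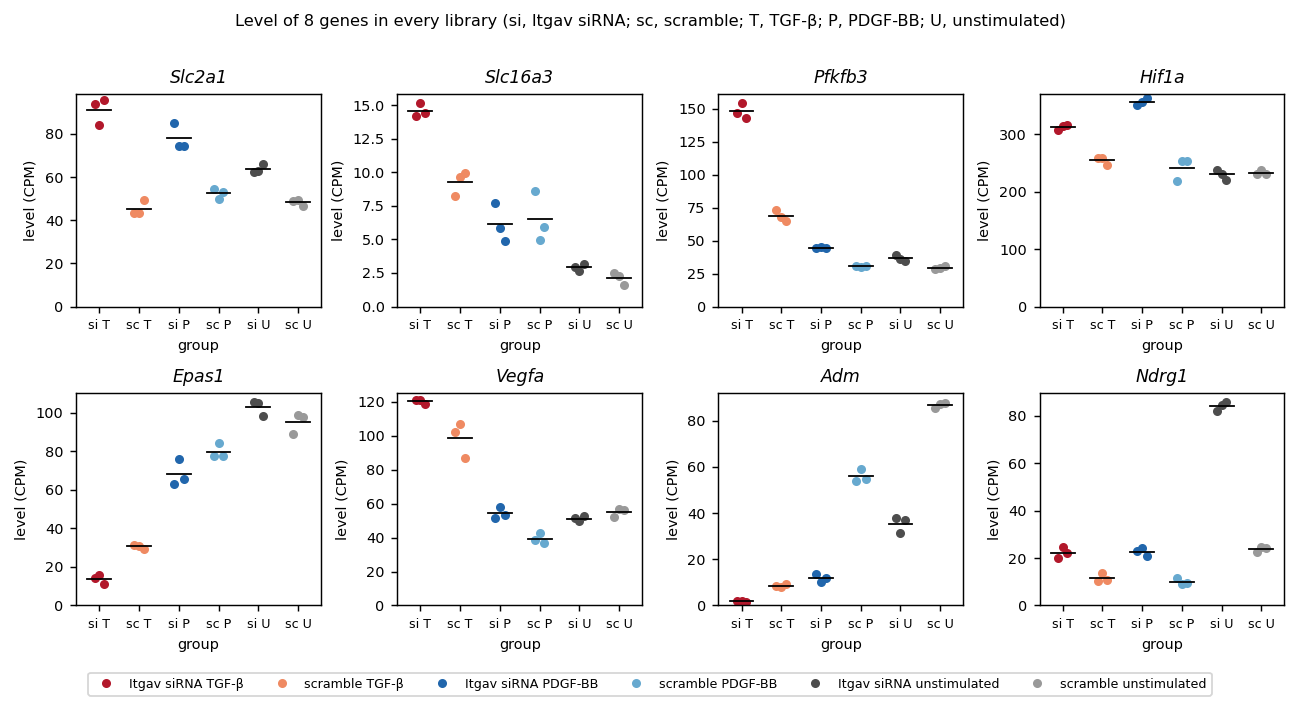
Level in CPM (vertical axes) of 8 genes in each library, by group (horizontal axes): si, Itgav siRNA; sc, scramble; T, TGF-β; P, PDGF-BB; U, unstimulated. Points are libraries and bars are means of 3. Pfkfb3 and Slc2a1 are highest with both siRNA and TGF-β, Hif1a with both siRNA and PDGF-BB, and Adm and Epas1 are lowest with both siRNA and TGF-β.

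The 2 HIF alpha subunits parted under TGF-β. Hif1a, the subunit present in most cells, had 307, 314 and 316 CPM in Itgav siRNA cells with TGF-β, 350.0, 357 and 362 CPM in Itgav siRNA cells with PDGF-BB and 238, 232 and 221 CPM in Itgav siRNA cells without stimulus. Scramble cells had 259, 258 and 247 CPM of it with TGF-β, 218, 254 and 254 CPM with PDGF-BB and 231, 237 and 230.4 CPM without stimulus. Itgav siRNA raised it with PDGF-BB (log2 fold change 0.56, SE 0.048, edgeR adjusted p = 1.8e-09) and with TGF-β (log2 fold change 0.29, SE 0.048, edgeR adjusted p = 2.9e-05), where the groups were apart, but not without stimulus (log2 fold change -0.02, SE 0.049, edgeR adjusted p = 0.78), where they overlapped. Both differences from the unstimulated effect passed, at 0.58 with PDGF-BB (edgeR adjusted p = 4.5e-06) and 0.31 with TGF-β (edgeR adjusted p = 0.0019). Both stimuli raised Hif1a in Itgav siRNA cells, PDGF-BB by 0.63 (edgeR adjusted p = 5.8e-10) and TGF-β by 0.44 (edgeR adjusted p = 6.6e-08), or 0.29 under library totals. In scramble cells PDGF-BB was not called (0.05), except without scramble PDGF-BB replicate 1, where it was 0.13 (edgeR adjusted p = 0.022). There TGF-β passed narrowly (log2 fold change 0.13, SE 0.049, edgeR adjusted p = 0.032), and it was not called under library totals (0.02); its adjusted p in edgeR was 0.076 to 0.082 without scramble unstimulated replicate 1 or 3 or scramble TGF-β replicate 1 or 2.

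Epas1 encodes HIF-2α, the alpha subunit best known from endothelium and a few other tissues. It had 14.1, 15.9 and 11.2 CPM in Itgav siRNA cells with TGF-β, 62.8, 75.9 and 65.4 CPM in Itgav siRNA cells with PDGF-BB and 105, 105 and 98.4 CPM in Itgav siRNA cells without stimulus. Scramble cells had 31.6, 30.9 and 29.5 CPM of it with TGF-β, 77.7, 84.3 and 77.6 CPM with PDGF-BB and 89.1, 98.7 and 97.9 CPM without stimulus. TGF-β lowered it 7.51-fold in Itgav siRNA cells (log2 fold change -2.91, SE 0.090, edgeR adjusted p = 2.1e-17) and 3.10-fold in scramble cells (log2 fold change -1.63, SE 0.082, edgeR adjusted p = 2.0e-13), with no overlap in either. The siRNA effect was -1.16 with TGF-β (edgeR adjusted p = 1.5e-09) and 0.11 without stimulus (edgeR adjusted p = 0.21), and the difference between them was -1.28 (SE 0.12, edgeR adjusted p = 9.3e-08). With PDGF-BB the siRNA effect was -0.23 (edgeR adjusted p = 0.013), with an adjusted p of 0.055 to 0.079 without scramble PDGF-BB replicate 2 or Itgav siRNA PDGF-BB replicate 1 or 3. PDGF-BB lowered Epas1 in Itgav siRNA cells (-0.60, edgeR adjusted p = 1.4e-06) and in scramble cells (-0.25, edgeR adjusted p = 0.011). Per kilobase of transcript, the level of Hif1a was 28.1 ± 5.16 times that of Epas1 in Itgav siRNA cells with TGF-β and 10.1 ± 0.159 times in scramble cells with TGF-β, where without stimulus it was 2.70 ± 0.0376 times in Itgav siRNA cells and 2.97 ± 0.161 times in scramble cells (SD, n = 3 each). The 8 endothelial markers summed to 64.4 to 68.7 CPM in Itgav siRNA cells with TGF-β against 67.1 to 80.4 CPM in Itgav siRNA cells without stimulus, and to 69.8 to 85.1 CPM in scramble cells with TGF-β against 84.3 to 98.6 CPM in scramble cells without stimulus. The mesothelial sum was 25.3 to 31.1 CPM in Itgav siRNA cells with TGF-β against 90.5 to 93.2 CPM without stimulus and 62.1 to 64.6 CPM in scramble cells with TGF-β against 155 to 166 CPM without stimulus, and the fibroblast sum 33.3 to 37.3 CPM against 89.7 to 91.0 CPM in Itgav siRNA cells and 38.2 to 39.9 CPM against 96.1 to 98.9 CPM in scramble cells. The part of any of these markers in the fall of Epas1 was not tested.

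The prolyl hydroxylases went separate ways. Egln1 encodes PHD2, the main oxygen sensor that marks HIF alpha for degradation, and it was lower with Itgav siRNA in all 3 media. It had 76.5, 79.1 and 83.8 CPM in Itgav siRNA cells with TGF-β against 94.3, 104 and 105 CPM in scramble cells, 58.9, 55.2 and 59.2 CPM in Itgav siRNA cells with PDGF-BB against 72.6, 73.5 and 80.0 CPM in scramble cells, and 65.4, 68.0 and 70.4 CPM in Itgav siRNA cells without stimulus against 93.8, 98.8 and 98.4 CPM in scramble cells. The groups did not overlap in any medium. The siRNA effect was -0.34 with TGF-β (SE 0.054, edgeR adjusted p = 1.6e-05), -0.38 with PDGF-BB (SE 0.055, edgeR adjusted p = 3.2e-06) and -0.51 without stimulus (SE 0.054, edgeR adjusted p = 4.7e-08). PDGF-BB lowered Egln1 in Itgav siRNA cells (-0.23, edgeR adjusted p = 0.0019) and in scramble cells (-0.36, edgeR adjusted p = 1.2e-05). Egln3, which encodes PHD3 and is itself a HIF target, rose with PDGF-BB, to 11.2, 12 and 12.4 CPM in Itgav siRNA cells against 5.47, 4.57 and 4.35 CPM in Itgav siRNA cells without stimulus (2.47-fold, log2 fold change 1.31, SE 0.14, edgeR adjusted p = 2.0e-07) and to 5.96, 6.90 and 5.18 CPM in scramble cells against 4.31, 2.84 and 2.91 CPM in scramble cells without stimulus (1.78-fold, log2 fold change 0.83, SE 0.16, edgeR adjusted p = 2.5e-04). Itgav siRNA raised Egln3 with PDGF-BB (1.98-fold, edgeR adjusted p = 3.1e-06). TGF-β lowered it in Itgav siRNA cells (-0.88, edgeR adjusted p = 1.4e-04). In scramble cells its fall of 0.55 with TGF-β (edgeR adjusted p = 0.017) had an adjusted p of 0.17 without scramble unstimulated replicate 1, where it was -0.32, and 0.071 without scramble TGF-β replicate 3. Without stimulus its siRNA effect of 0.51 (edgeR adjusted p = 0.011) had an adjusted p of 0.061, 0.059 or 0.063 in edgeR without scramble unstimulated replicate 2, scramble unstimulated replicate 3 or Itgav siRNA unstimulated replicate 1.

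HIF target genes did not move as one group, and 2 of them, Adm and Ndrg1, had the largest siRNA effects of the 33 genes in unstimulated cells, in opposite directions. Adm encodes adrenomedullin, a vasodilator peptide induced by hypoxia in many cells, and it fell with the siRNA and with both stimuli. It had 2.12, 1.93 and 1.5 CPM in Itgav siRNA cells with TGF-β, 13.8, 10.3 and 11.8 CPM in Itgav siRNA cells with PDGF-BB and 37.7, 31.4 and 37.1 CPM in Itgav siRNA cells without stimulus. Scramble cells had 8.47, 7.85 and 9.32 CPM of it with TGF-β, 54.0, 59.0 and 54.8 CPM with PDGF-BB and 85.6, 87.2 and 87.6 CPM without stimulus. None of the groups compared overlapped. TGF-β lowered it 19.1-fold in Itgav siRNA cells (log2 fold change -4.26, SE 0.13, edgeR adjusted p = 1.2e-17) and 10.2-fold in scramble cells (log2 fold change -3.35, SE 0.093, edgeR adjusted p = 7.7e-18), and PDGF-BB 2.96-fold in Itgav siRNA cells (edgeR adjusted p = 4.8e-12) and 1.55-fold in scramble cells (edgeR adjusted p = 5.4e-07). Itgav siRNA lowered it 4.62-fold with TGF-β (edgeR adjusted p = 1.2e-10), 4.68-fold with PDGF-BB (edgeR adjusted p = 4.2e-15) and 2.45-fold without stimulus (edgeR adjusted p = 4.5e-12). In both stimulated media the siRNA effect was more negative than without stimulus, with differences of -0.91 for TGF-β (edgeR adjusted p = 8.2e-04) and -0.93 for PDGF-BB (edgeR adjusted p = 1.0e-05) on the log2 scale.

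Ndrg1, a stress-responsive gene that hypoxia induces, took the opposite sign under the siRNA. It had 19.8, 24.6 and 21.9 CPM in Itgav siRNA cells with TGF-β against 10.2, 13.8 and 10.9 CPM in scramble cells with TGF-β (1.90-fold, edgeR adjusted p = 1.5e-07). With PDGF-BB it had 23.1, 24.1 and 20.9 CPM in Itgav siRNA cells against 11.6, 9.16 and 9.53 CPM in scramble cells (2.25-fold, edgeR adjusted p = 2.4e-09), and without stimulus 81.9, 84.8 and 85.7 CPM in Itgav siRNA cells against 22.5, 24.6 and 24.3 CPM in scramble cells (3.54-fold, log2 fold change 1.82, SE 0.087, edgeR adjusted p = 1.1e-13). The unstimulated siRNA libraries were the highest of the 18. Both stimuli lowered Ndrg1: TGF-β 3.80-fold in Itgav siRNA cells and 2.04-fold in scramble cells, and PDGF-BB 3.70-fold in Itgav siRNA cells and 2.36-fold in scramble cells (edgeR adjusted p = 2.1e-14, 2.1e-08, 1.0e-13 and 2.7e-09). The mesothelial and fibroblast marker sums, whose values stand beside Epas1, were also lower with TGF-β where Ndrg1, Adm and Bnip3l were, and their part was not tested. Its siRNA effect was smaller with TGF-β (-0.90, edgeR adjusted p = 3.8e-05) and with PDGF-BB (-0.65, edgeR adjusted p = 0.0019) than without stimulus.

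Vegfa, the endothelial growth factor that is a standard HIF target, rose with TGF-β. It had 121, 121 and 119 CPM in Itgav siRNA cells with TGF-β against 51.7, 49.6 and 52.5 CPM in Itgav siRNA cells without stimulus (2.35-fold, log2 fold change 1.23, SE 0.068, edgeR adjusted p = 5.2e-13), and 102, 107 and 86.9 CPM in scramble cells with TGF-β against 52.0, 56.6 and 56.6 CPM in scramble cells without stimulus (1.79-fold, log2 fold change 0.84, SE 0.067, edgeR adjusted p = 5.9e-10). PDGF-BB lowered it in scramble cells, to 38.5, 42.6 and 37.0 CPM (log2 fold change -0.48, SE 0.071, edgeR adjusted p = 1.1e-05), and was not called in Itgav siRNA cells, at 51.8, 58.1 and 53.0 CPM (0.08). Itgav siRNA raised Vegfa by 0.47 with PDGF-BB (edgeR adjusted p = 7.0e-06) and by 0.29 with TGF-β (edgeR adjusted p = 9.2e-04), and was not called without stimulus (-0.10). Both stimulated effects differed from the unstimulated one, by 0.57 with PDGF-BB (edgeR adjusted p = 3.6e-04) and 0.39 with TGF-β (edgeR adjusted p = 0.0045).

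Bnip3 and Bnip3l encode related receptors for the removal of mitochondria by autophagy, and Itgav siRNA moved them in opposite directions. Bnip3 had 68.7, 72.0 and 74.7 CPM in Itgav siRNA cells with TGF-β against 41.8, 40.9 and 43.9 CPM in scramble cells, 84.7, 80.5 and 78.7 CPM in Itgav siRNA cells with PDGF-BB against 39.7, 41.3 and 39.8 CPM in scramble cells, and 58.1, 56.6 and 54.1 CPM in Itgav siRNA cells without stimulus against 35.6, 37.6 and 34.1 CPM in scramble cells. It rose 1.70-fold with TGF-β (edgeR adjusted p = 5.8e-11), 2.02-fold with PDGF-BB (edgeR adjusted p = 3.0e-13) and 1.57-fold without stimulus (edgeR adjusted p = 8.6e-10), with no overlap. Both stimuli raised Bnip3 in both kinds of cell. In Itgav siRNA cells TGF-β raised it by 0.35 (edgeR adjusted p = 3.6e-06), or 0.20 under library totals, and PDGF-BB by 0.53 (edgeR adjusted p = 2.0e-08) on the log2 scale. In scramble cells TGF-β raised it by 0.24 (edgeR adjusted p = 0.0010), which was 0.13 and not called under library totals (edgeR adjusted p = 0.058). PDGF-BB raised it there by 0.17 (edgeR adjusted p = 0.017), with an adjusted p of 0.056 when scramble PDGF-BB replicate 2 was left out and 0.092 when unstimulated replicate 3 of the same cells was. Bnip3l fell by 0.22 with TGF-β (edgeR adjusted p = 3.7e-04), 0.15 with PDGF-BB (edgeR adjusted p = 0.0069) and 0.16 without stimulus (edgeR adjusted p = 0.0032) on the log2 scale, and its PDGF-BB groups overlapped. TGF-β also lowered Bnip3l in Itgav siRNA cells (-0.51, edgeR adjusted p = 1.9e-09) and in scramble cells (-0.45, edgeR adjusted p = 1.6e-08). Ankrd37, an ankyrin repeat gene, had at most 1.34 CPM in any library and was not called in any of the comparisons. Its exons overlap those of Ufsp2 on the other strand, which had 18440 counts over the 18 libraries where Ankrd37 had 237.

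In all, 18 of the 33 genes were called for Itgav siRNA in each of the 3 media: 9 higher in each, 8 lower in each, and Tpi1 mixed. The 9 were Slc2a1, Hk2, Pfkl, Pfkp, Eno2, Pfkfb3, Pfkfb4, Bnip3 and Ndrg1, and the 8 were Gpi1, Pfkm, Gapdh, Pgam1, Ldha, Bnip3l, Egln1 and Adm. Of all genes tested, 48.4%, 59.3% and 53.4% were called for the siRNA with TGF-β, with PDGF-BB and without stimulus. The share of all genes called in each of the 3 media was not counted, so the 18, 9 and 8 have no background beside them. The siRNA effect differed from that without stimulus for 17 genes with TGF-β, 11 more positive and 6 more negative, where 23.2% of all genes tested were called. With PDGF-BB it differed for 11 genes, 5 more positive and 6 more negative, where 18.8% were called. In the same libraries, the summed level of the 8 smooth muscle markers was 6166 to 6260.4 CPM in Itgav siRNA cells with TGF-β against 11215 to 11475 CPM in scramble cells. With PDGF-BB it was 1310.5 to 1424 CPM in Itgav siRNA cells against 2071 to 2261 CPM in scramble cells, and without stimulus 2617 to 2755 CPM in Itgav siRNA cells against 4151 to 4407 CPM in scramble cells. That of the 6 mesothelial markers was 25.3 to 31.1 CPM in Itgav siRNA cells with TGF-β against 62.1 to 64.6 CPM in scramble cells, 81.5 to 90.0 CPM in Itgav siRNA cells with PDGF-BB against 194 to 219 CPM in scramble cells, and 90.5 to 93.2 CPM in Itgav siRNA cells without stimulus against 155 to 166 CPM in scramble cells. The fibroblast sum was 33.3 to 37.3 CPM in Itgav siRNA cells with TGF-β against 38.2 to 39.9 CPM in scramble cells, 121 to 129 CPM in Itgav siRNA cells with PDGF-BB against 149 to 156 CPM in scramble cells, and 89.7 to 91.0 CPM in Itgav siRNA cells without stimulus against 96.1 to 98.9 CPM in scramble cells. Single fibroblast markers did not follow that sum, of which Cd34 made up the most in scramble cells: of the 8, 3 were called higher and 1 lower with TGF-β, 4 higher and 1 lower with PDGF-BB, and 5 higher and 1 lower without stimulus. Without stimulus Scara5 had 10.9, 9.79 and 11.3 CPM in Itgav siRNA cells against 2.66, 2.94 and 3.0 CPM in scramble cells, Pdgfra 25.9, 25.2 and 23.8 CPM against 11.5, 13.3 and 12.2 CPM, and Cd34 42.9, 45.4 and 45.9 CPM against 79.3, 76.3 and 76.1 CPM. Fabp4, the one adipocyte marker of 6 that was tested, had 3.43, 3.01 and 3.01 CPM in Itgav siRNA cells without stimulus against 13.1, 12.5 and 11.5 CPM in scramble cells without stimulus, and it was called lower in all 3 media. Mylk, a smooth muscle marker, was higher in Itgav siRNA cells than in scramble cells with PDGF-BB and without stimulus, against its sum. Without stimulus it had 43.7, 44.3 and 47.5 CPM in Itgav siRNA cells against 32.8, 34.2 and 35.4 CPM in scramble cells. The part of these markers in the siRNA effects was not tested.

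Pkm makes 2 proteins by use of 1 of 2 mutually exclusive exons, PKM1, typical of differentiated muscle and brain, and PKM2, typical of proliferating cells. The exons are shown because they are what tells the isoforms apart in the transcript counts. Both are 167 bases long and coding, and 103 bases (61.7%) are the same; positions are in GRCm38 and capitals mark the bases that differ.
Pkm1 exon, chr9:59675029-59675195, plus strand: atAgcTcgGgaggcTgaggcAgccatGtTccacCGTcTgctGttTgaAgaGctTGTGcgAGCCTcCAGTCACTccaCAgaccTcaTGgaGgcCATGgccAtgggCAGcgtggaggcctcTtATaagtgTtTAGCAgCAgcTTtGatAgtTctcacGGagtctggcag
Pkm2 exon, chr9:59675568-59675734, plus strand: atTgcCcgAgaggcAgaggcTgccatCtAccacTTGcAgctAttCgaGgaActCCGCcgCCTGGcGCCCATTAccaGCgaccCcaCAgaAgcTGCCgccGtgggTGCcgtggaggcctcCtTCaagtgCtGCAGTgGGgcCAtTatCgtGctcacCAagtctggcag

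Pkm2 was the main isoform in every group, and Pkm1 made up 20.7% to 26.9% of the 2 isoforms' counts over the 18 libraries. The Pkm1 share was 22.5% ± 0.476 in Itgav siRNA cells with TGF-β and 24.0% ± 1.03 in scramble cells with TGF-β (SD, n = 3 each). With PDGF-BB it was 24.7% ± 0.979 in Itgav siRNA cells and 26.1% ± 1.20 in scramble cells, and without stimulus 21.4% ± 0.946 in Itgav siRNA cells and 22.9% ± 0.691 in scramble cells (SD, n = 3 each). In scramble cells the 3 PDGF-BB libraries (26.7%, 26.9% and 24.7%) lay above the 3 unstimulated ones (22.3%, 23.6% and 22.8%). These shares are StringTie estimates and are given as a description, with no test. The rise of Pkm with PDGF-BB was carried by both isoforms: Pkm2 stood at 1309 ± 96.0 CPM in scramble cells with PDGF-BB against 798 ± 48.7 CPM without stimulus, and Pkm1 at 463 ± 41.2 CPM against 237 ± 9.96 CPM (SD, n = 3 each).

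**Figure D5:**
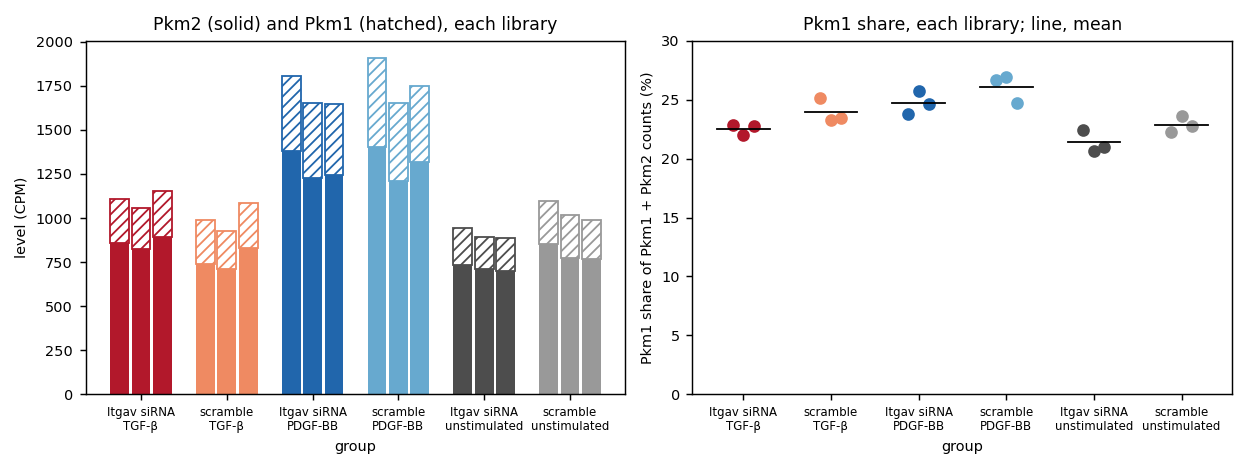
Left, level in CPM of Pkm2 (solid) and Pkm1 (hatched, stacked) in each library by group; right, Pkm1 as a percentage of both isoforms' counts, points for libraries and bars for means of 3. The stacked bars are tallest in the 2 PDGF-BB groups, and the Pkm1 share runs from 20.7% to 26.9% over all libraries.

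HIF binds the hypoxia response element, whose core is ACGTG or GCGTG, and these letters were looked up on both strands in the 250 bases before each start site that RefSeq gives (GRCm38.p6). Of 44 windows of 30 of the 33 genes, 35 (79.5%) held the core, and so did 27 of the 30 genes in at least 1 window. Among the 28 windows of the 17 enzymes 75.0% held it, among the 16 windows of the other genes 87.5%, and among all 32851 RefSeq windows 38.6%. The windows of these genes also had a higher median GC content, 60.4% against 52.4% over all windows, and the cores contain CpG. ACGTG also lies within the E-box CACGTG, which other factors bind and which 13.6% of the windows held against 6.02% of all. Ndrg1, Epas1 and Bnip3l had no window. A match is a description of letters and shows no binding.

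The following 5 windows are examples, and all of them hold the core. Of their genes, Pgk1, Ldha and Hk2 rose with PDGF-BB, Slc16a1 moved with PDGF-BB according to the siRNA, and Adm fell throughout. Pgk1, Ldha and Hk2 were not the enzymes that rose most. In scramble cells Eno2, Pkm, Tpi1, Pfkl, Aldoa and Gapdh rose more with PDGF-BB, and their windows are not shown. ACGTG, which the windows of Pgk1, Ldha and Hk2 hold, was found for 7 of the 17 enzymes. Capitals mark the core on either strand, and each window ends at the base before the start site.
Pgk1, chrX:106186850-106187099, plus strand: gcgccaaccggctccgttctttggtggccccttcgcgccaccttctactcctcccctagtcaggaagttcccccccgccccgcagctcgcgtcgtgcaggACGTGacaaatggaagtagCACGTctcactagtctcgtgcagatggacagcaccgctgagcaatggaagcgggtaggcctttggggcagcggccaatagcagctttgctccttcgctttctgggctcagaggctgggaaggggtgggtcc
Ldha, chr7:46845554-46845803, plus strand: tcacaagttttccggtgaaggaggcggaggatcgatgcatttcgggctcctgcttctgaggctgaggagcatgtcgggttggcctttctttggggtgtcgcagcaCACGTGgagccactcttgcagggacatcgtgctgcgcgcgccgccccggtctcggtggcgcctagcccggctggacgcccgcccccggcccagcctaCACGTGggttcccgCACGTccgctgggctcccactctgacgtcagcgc
Hk2, chr6:82774455-82774704, minus strand: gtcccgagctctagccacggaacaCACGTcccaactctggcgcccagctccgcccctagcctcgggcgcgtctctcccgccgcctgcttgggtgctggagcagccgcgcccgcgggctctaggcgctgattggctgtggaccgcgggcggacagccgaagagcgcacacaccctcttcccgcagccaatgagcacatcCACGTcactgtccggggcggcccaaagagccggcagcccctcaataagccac
Slc16a1, chr3:104638414-104638663, plus strand: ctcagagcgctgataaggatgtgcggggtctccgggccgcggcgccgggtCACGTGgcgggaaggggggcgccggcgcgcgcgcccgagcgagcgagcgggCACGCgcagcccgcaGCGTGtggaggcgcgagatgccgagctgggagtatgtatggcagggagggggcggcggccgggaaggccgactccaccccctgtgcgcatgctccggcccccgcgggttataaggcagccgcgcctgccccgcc
Adm, chr7:110627407-110627656, plus strand: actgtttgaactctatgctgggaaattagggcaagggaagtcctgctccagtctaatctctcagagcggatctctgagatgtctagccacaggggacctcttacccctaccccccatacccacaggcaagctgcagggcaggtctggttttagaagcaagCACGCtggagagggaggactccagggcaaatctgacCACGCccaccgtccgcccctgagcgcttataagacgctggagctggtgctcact

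Pgk1 and Hk2 held 2 matches of ACGTG each and Ldha 5 in the window shown, among them both strands of 2 E-boxes. A second Ldha window, chr7:46846832-46847081, held 1 match of GCGTG and 0 of ACGTG. Slc16a1 held 2 of ACGTG, which are the 2 strands of 1 E-box, and 2 of GCGTG. Adm, which fell where the 3 enzymes rose, held 2 of GCGTG at 90 and 54 bases before its start. Letters of the core were thus present in genes that PDGF-BB raised and in one that it lowered. Eno2, Gpi1 and Tpi1, which PDGF-BB raised in both kinds of cell, had no match in theirs.

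Other genes of the 2 pathways were counted for comparison. Of 30 further HIF regulators and hypoxia response genes 29 were tested. Itgav siRNA raised 11 and lowered 7 with TGF-β, so 62.1% were called beside 48.4% of all genes tested. It raised 16 and lowered 7 with PDGF-BB (79.3% beside 59.3%), and raised 11 and lowered 6 without stimulus (58.6% beside 53.4%). PDGF-BB raised 12 and lowered 6 in Itgav siRNA cells (62.1% beside 36.4%) and raised 6 and lowered 6 in scramble cells (41.4% beside 36.1%). TGF-β raised 8 and lowered 15 in Itgav siRNA cells (79.3% beside 57.5%) and raised 8 and lowered 13 in scramble cells (72.4% beside 48.3%). The shares for the siRNA without stimulus and for PDGF-BB in scramble cells were near the background. Bhlhe40, a hypoxia-induced transcriptional repressor of the basic helix-loop-helix family, had 114, 118 and 121 CPM in Itgav siRNA cells with TGF-β against 34.3, 31.9 and 31.8 CPM in scramble cells (1.85 on the log2 scale, edgeR adjusted p = 4.1e-15). It had 48.1, 51.9 and 49.0 CPM in Itgav siRNA cells with PDGF-BB against 15.0, 17 and 13.4 CPM in scramble cells (1.71, edgeR adjusted p = 5.0e-14). Plod2, a collagen lysyl hydroxylase, went the other way from Slc2a1 and Pfkfb3 under the siRNA, with 647, 664 and 636 CPM in Itgav siRNA cells with TGF-β against 1198, 1245 and 1065 CPM in scramble cells, and 201, 197 and 206 CPM in Itgav siRNA cells without stimulus against 382, 415 and 433 CPM in scramble cells (-1.03, edgeR adjusted p = 3.7e-12). Angptl4, a secreted inhibitor of lipoprotein lipase, had 40.9, 37.9 and 32.6 CPM in Itgav siRNA cells with PDGF-BB against 13.2, 10.6 and 11.7 CPM in scramble cells with PDGF-BB, and 6.28, 4.87 and 5.13 CPM in Itgav siRNA cells without stimulus against 2.89, 3.45 and 2.76 CPM in scramble cells without stimulus. PDGF-BB raised it by 2.78 in Itgav siRNA cells (edgeR adjusted p = 7.1e-14) and 1.97 in scramble cells (edgeR adjusted p = 4.0e-10).

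Of 29 further glycolysis and pyruvate genes 23 were tested, and with PDGF-BB 8 rose and 6 fell in Itgav siRNA cells (60.9% called beside 36.4% of all genes), and 4 rose and 5 fell in scramble cells (39.1% beside 36.1%). Itgav siRNA raised 2 and lowered 10 with TGF-β (52.2% beside 48.4%), raised 7 and lowered 10 with PDGF-BB (73.9% beside 59.3%), and raised 4 and lowered 11 without stimulus (65.2% beside 53.4%). The shares for PDGF-BB in scramble cells and for the siRNA with TGF-β were near the background. Eno3, the muscle enolase, fell in all 3 media where Eno2 rose. It had 9.49, 8.11 and 8.77 CPM in Itgav siRNA cells with TGF-β against 18.6, 16.1 and 19.3 CPM in scramble cells, 7.82, 9.15 and 7.93 CPM in Itgav siRNA cells with PDGF-BB against 20.2, 18.7 and 22.2 CPM in scramble cells, and 6.01, 7.38 and 5.96 CPM in Itgav siRNA cells without stimulus against 12.5, 11.4 and 12.4 CPM in scramble cells, with no overlap within a medium. Its log2 fold changes were -1.03, -1.29 and -0.90 in that order (edgeR adjusted p = 3.0e-08, 4.1e-10 and 4.6e-07). Bpgm, the mutase that makes 2,3-bisphosphoglycerate, rose with TGF-β, to 65.2, 65.8 and 67.4 CPM in Itgav siRNA cells against 22.8, 19.2 and 21.7 CPM in Itgav siRNA cells without stimulus (1.64, edgeR adjusted p = 1.1e-14) and to 75.0, 70.1 and 80.1 CPM in scramble cells against 37.1, 31.6 and 33.3 CPM in scramble cells without stimulus (1.14, edgeR adjusted p = 4.2e-12). Pdk4, a second pyruvate dehydrogenase kinase, had 66.4, 73.4 and 66.6 CPM in Itgav siRNA cells with TGF-β against 41.8, 42.1 and 31.7 CPM in scramble cells (0.84, edgeR adjusted p = 7.5e-08). Pdk3, another, had 30.6, 26.9 and 29.5 CPM in Itgav siRNA cells with TGF-β against 41.6, 43.8 and 48.6 CPM in scramble cells (-0.62, edgeR adjusted p = 1.1e-07). In Itgav siRNA cells TGF-β also raised Pdk4 (0.89, edgeR adjusted p = 1.7e-08) and lowered Slc16a7 (-0.95, edgeR adjusted p = 3.0e-06). In scramble cells it raised Adpgk (0.77, edgeR adjusted p = 7.6e-11) and lowered Pdp1 (-0.74, edgeR adjusted p = 6.4e-07). How many of the 23 were called with TGF-β is not given here.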

How the data were processed

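RNA sequencing of 18 libraries, 6 groups of 3, was analysed from the gene and transcript tables that the authors deposited. The authors deposited estimated counts per gene and per transcript, not normalised, of which 76.2% were whole numbers. The submitters' processing notes name HISAT2 2.2.1, StringTie 2.1.6 and the build mm10; annotation release and strand setting: not given in the sources used here. Groups were taken from the labels. Counts were rounded to whole numbers and tested with edgeR 4.0.16 (R 4.3.3): filterByExpr with a minimum count of 10, trimmed-mean (TMM) scaling and the quasi-likelihood F test over group means of all 18 libraries, with Benjamini-Hochberg adjustment over 15832 genes. The 7 comparisons between pairs of groups and the 2 differences of the siRNA effect were called at 0.05. Library totals ran from 17705072 to 21592916, with a biological coefficient of variation of 6.01% on 12 residual degrees of freedom. No 2 libraries of a group agreed within sampling noise (lowest chi-square per degree of freedom 2.21).

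The 33 genes and all companion and marker lists were chosen with earlier results of these data known. From each of 3 companion lists, up to 3 genes per comparison could be named, those with the largest change among called genes of at least 5 CPM whose groups did not overlap. Not all of these were described, among them Car12, Ak4 and Mpc1. Ppp1r3c, a hypoxia response gene, was also left out, at -4.38 in Itgav siRNA cells and -2.78 in scramble cells with TGF-β (log2 fold changes). Itgav siRNA raised Ppp1r3c by 1.64 with PDGF-BB and 1.27 without stimulus. Stc2, at -2.45 with TGF-β in Itgav siRNA cells, was left out too. Alternatives were no filter, a filter at a mean of 1 CPM, edgeR with DESeq2 size factors, library totals, a replicate block, fits of the compared groups alone, leaving out 1 library at a time, and DESeq2 1.42.0. A further alternative used transcript counts summed per gene, which differed from the gene counts by at most 0.06. The procedure was tested on simulated data. Transcript lengths, overlaps and the Pkm exons came from GENCODE M21 (GRCm38), which holds 90.7% of the gene IDs and 99.3% of the counts and may not be the authors' release. Promoter windows are RefSeq's (GRCm38.p6), matched by symbol for 30 of the 33 genes. The Aldoa symbol has a second gene ID with 14 counts, which was left out. Tables and figures used Python 3.11.15, pandas 2.3.3, numpy 2.4.6 and matplotlib 3.10.9.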

Additional observations from a re-analysis of the deposited data

Results flagged for a closer look

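For 17 of the 33 genes the effect of Itgav siRNA with TGF-β differed from its effect without stimulus in edgeR's test of the difference, and for 11 genes its effect with PDGF-BB did. The values that follow are the stimulated siRNA effect minus the unstimulated one, in log2 units. With TGF-β the difference was 0.78 for Pfkfb3, 0.65 for Eno2, 0.61 for Slc2a1, 0.39 for Vegfa, 0.38 for Ldha and 0.37 for Pdk1. It was 0.34 for Tpi1, 0.33 for Pkm, 0.31 for Hif1a, 0.31 for Gapdh and 0.27 for Pgk1. Negative differences were -1.28 for Epas1, -0.91 for Adm, -0.90 for Ndrg1, -0.32 for Pfkp, -0.29 for Ldhb and -0.25 for Hk1. That of Eno2 was 0.43 without scramble unstimulated replicate 1 (edgeR adjusted p = 0.059). That of Pdk1 was 0.36 with no filter on low counts (edgeR adjusted p = 0.062).

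With PDGF-BB the difference was 0.98 for Slc16a1, 0.58 for Hif1a, 0.57 for Vegfa, 0.36 for Bnip3 and 0.32 for Ldha. Negative differences were -0.93 for Adm, -0.65 for Ndrg1, -0.41 for Pfkl, -0.34 for Epas1, -0.28 for Ldhb and -0.24 for Eno1. The last 3 did not hold without single libraries: in edgeR the adjusted p of Epas1 was 0.051 to 0.068 when 1 of 6 libraries was left out (scramble unstimulated replicate 1, Itgav siRNA unstimulated replicate 1 or 2, scramble PDGF-BB replicate 2, Itgav siRNA PDGF-BB replicate 1 or 3). That of Ldhb was 0.057 to 0.073 when 1 of 5 was left out (scramble unstimulated replicate 2 or 3, Itgav siRNA unstimulated replicate 3, scramble PDGF-BB replicate 1, Itgav siRNA PDGF-BB replicate 3). That of Eno1 was 0.058 to 0.12 when 1 of 8 was left out, that is any of the 12 but scramble unstimulated replicate 1, scramble PDGF-BB replicates 2 and 3 and Itgav siRNA PDGF-BB replicate 1. Both sets of differences use the same unstimulated libraries. Itgav itself was lowered less with PDGF-BB than without stimulus, by 0.58, and the part of this in the differences was not tested.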

How the results depend on the processing

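Over 4543 values recomputed under the alternatives, 4365 kept their direction and side of the threshold, 118 were no longer past it, 60 newly passed it and none changed sign after being called. These include the fit on transcript counts summed per gene, which nearly repeats the main fit and so could hardly differ. Leaving out 1 library at a time gave 26 to 27 calls among the 33 genes for TGF-β and 24 to 27 for PDGF-BB in Itgav siRNA cells, and 16 to 21 for TGF-β and 22 to 24 for PDGF-BB in scramble cells. For Itgav siRNA it gave 23 to 28 calls with TGF-β, 25 to 26 with PDGF-BB and 19 to 20 without stimulus, and for the differences of the siRNA effect 17 to 18 with TGF-β and 8 to 12 with PDGF-BB. Calls that passed in every alternative numbered 18 of 27 for TGF-β and 24 of 27 for PDGF-BB in Itgav siRNA cells, 11 of 20 for TGF-β and 22 of 23 for PDGF-BB in scramble cells, and 22 of 27, 25 of 27 and 18 of 21 for the siRNA with TGF-β, with PDGF-BB and without stimulus. Library totals moved 6 called values by over 1.5 times: with TGF-β in Itgav siRNA cells Bnip3 to 0.20 and Hif1a to 0.29, and in scramble cells Hk1 to -0.25, Gpi1 to -0.31, Pgk1 to -0.22 and Ldha to -0.29. The replicate numbers were not shown to pair the libraries: same-numbered libraries correlated at -0.16 to 0.21 (median 0.017), with 0 of 15 pairs of groups over 0.1 throughout. With a replicate block no call was lost and 6 were gained, among them Slc16a1 for TGF-β in Itgav siRNA cells (-0.18, edgeR adjusted p = 0.030). DESeq2 lost 1 call, Ldhb for PDGF-BB in Itgav siRNA cells. Ankrd37 and Aldoc, at no more than 3.48 CPM, rest on few counts.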

Other observations

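The pentose phosphate pathway branches from glycolysis at glucose 6-phosphate and makes NADPH and ribose, and all 8 of its listed genes were tested. Itgav siRNA raised 2 and lowered 5 with TGF-β, raised 2 and lowered 3 with PDGF-BB, and raised 3 and lowered 3 without stimulus, so 87.5%, 62.5% and 75.0% of the 8 were called beside 48.4%, 59.3% and 53.4% of all genes tested. The share with PDGF-BB was near the background. Taldo1, transaldolase of the branch that returns carbon to glycolysis, had 79.5, 73.5 and 77.9 CPM in Itgav siRNA cells with TGF-β against 34.9, 32.8 and 36.1 CPM in scramble cells (1.16 on the log2 scale, edgeR adjusted p = 5.3e-12). It had 88.2, 76.9 and 80.3 CPM in Itgav siRNA cells with PDGF-BB against 46.4, 38.4 and 45.1 CPM in scramble cells (0.92, edgeR adjusted p = 9.2e-11), and 74.4, 74.3 and 72.9 CPM in Itgav siRNA cells without stimulus against 30.4, 26.9 and 28.5 CPM in scramble cells (1.37, edgeR adjusted p = 3.0e-13). The siRNA libraries were above the scramble libraries in each medium with no overlap.

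G6pdx, the glucose-6-phosphate dehydrogenase that opens the pathway, also rose with Itgav siRNA, with 151, 148 and 162 CPM in Itgav siRNA cells with TGF-β against 103, 93.3 and 98.9 CPM in scramble cells (0.64, edgeR adjusted p = 2.1e-10), and 173, 172 and 172 CPM in Itgav siRNA cells without stimulus against 127, 127 and 119.7 CPM in scramble cells (0.47, edgeR adjusted p = 2.3e-08). Rpe, the ribulose-phosphate epimerase, fell under the siRNA with TGF-β (-0.38, edgeR adjusted p = 4.1e-06) and without stimulus (-0.40, edgeR adjusted p = 1.9e-06). Tkt, transketolase, fell under the siRNA with PDGF-BB (-0.46, edgeR adjusted p = 5.4e-07), so Taldo1 and Tkt, both of the non-oxidative branch, moved in opposite directions there. TGF-β raised none and lowered 5 of the 8 in Itgav siRNA cells (62.5% called beside 57.5% of all genes) and raised 1 and lowered 5 in scramble cells (75.0% beside 48.3%). PDGF-BB raised 1 and lowered 2 in Itgav siRNA cells (37.5% beside 36.4%) and raised 3 and lowered 1 in scramble cells (50.0% beside 36.1%).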
